A study of Mus musculus with 6 samples.

Results

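This account concerns 8 genes by which an inhibitory neuron makes, packs, clears and responds to its transmitter GABA: Gad1, Gad2, Slc32a1, Slc6a11, Abat, Aldh5a1, Slc12a5 and Slc12a2. They were chosen by symbol, with earlier results of these data known, and make up 8 of the 23306 rows of the deposited count table. The tissue was frontal cortex of male C57BL6 mice, and the RNA counted was that bound to tagged ribosomes of parvalbumin neurons, a class of fast-spiking inhibitory interneuron. One set of animals carried an Fxr1 conditional knockout made with PV-Cre, a Cre recombinase under the parvalbumin promoter; Fxr1 encodes an RNA-binding protein related to the fragile X protein. The other animals were labelled wild type (WT), and the labels describe the driver and the ribosome tag for all samples alike. In PV-Cre::RiboTag mice, crossed from the PV-Cre driver and an RPL22HA/WT line, Cre adds a haemagglutinin tag to Rpl22, a protein of the large ribosomal subunit. An antibody to the tag then draws out ribosomes chiefly of cells that have expressed the driver. Age is not given in the labels. Of 6 libraries, 4 were used, namely knockout replicates 1 and 3 and WT replicates 2 and 3. The labels do not tie libraries to separate animals. The p-values therefore reflect only how much these libraries vary, and that variation may be technical.

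GABA is made from glutamate by the glutamate decarboxylases GAD67 (Gad1) and GAD65 (Gad2), which need pyridoxal phosphate as cofactor; GAD67 is spread through the cell and supplies most basal GABA, while GAD65 is enriched at nerve endings and synaptic vesicles. The vesicular transporter VGAT (Slc32a1) fills synaptic vesicles with GABA, plasma membrane transporters such as GAT3 (Slc6a11), found mainly in astrocytes, remove it, and the mitochondrial enzymes GABA transaminase (Abat) and succinic semialdehyde dehydrogenase (Aldh5a1) break it down to succinate. Whether GABA-A receptors hyperpolarise a cell depends on its chloride, which KCC2 (Slc12a5) carries out together with potassium and NKCC1 (Slc12a2) carries in with sodium and potassium. In many neurons of the cortex KCC2 rises and NKCC1 weighs less as the brain matures.

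The 4 libraries held 9696126 to 10301280 counts. Fxr1 stood at 17.8 and 18.7 CPM (a gene's counts per 1000000 counts of its library) in knockout libraries, against 98.4 and 101 CPM in WT libraries, so the targeted gene matched the labels. Pvalb stood at 248 and 241 CPM in knockout and at 262 and 264 CPM in WT. All 8 parvalbumin interneuron markers were detected, and their summed level was 5440.5 and 5685 CPM in knockout and 5642 and 5808 CPM in WT. Transcripts of other cells were present too: 8 excitatory neuron markers summed to 861 to 952 CPM over the 4 libraries, 10 astrocyte markers to 758 to 877 CPM, 12 oligodendrocyte and precursor markers to 289.7 to 416 CPM and 7 striatal projection neuron markers to 180.2 to 197 CPM. Markers of other interneurons, 9 in all, summed to 198 to 249 CPM, 7 microglial markers to 34.8 to 39.1 CPM, 6 vascular markers to 15.6 to 27.1 CPM, and 4 choroid plexus markers to 0.0972 to 0.619 CPM with Folr1 at 0. Each of these sums overlapped between the genotypes, but abundant markers weigh most in them. Camk2a averaged 702 CPM in knockout and 693 CPM in WT, and Slc1a2 487 CPM in knockout and 458 CPM in WT. Log2 fold changes of knockout over WT were above 0 for 6 excitatory markers and below 0 for 2. The split was 10 and 2 for oligodendrocyte, 7 and 3 for astrocyte, and 6 and 1 for striatal markers. It was 3 and 5 for parvalbumin and 1 and 5 for tested microglial markers. Over all tested genes 50.4% were below 0. The 45S ribosomal RNA row took 0.711% of the counts of knockout replicate 1 and 0.283% to 0.315% of the others.

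Gad1 and Gad2 are related genes, and their sequences show how far their reads can be told apart. In the GENCODE M21 gene models of mm10, the coding sequences of 1779 and 1755 bases were identical at 67.0% of 1739 aligned positions, and the longest exact run shared by the longest coding transcripts was 17 bases. The pair is shown first at the codons of Asn-Pro-His-Lys, whose lysine (codon 404 of Gad1 and 396 of Gad2) binds the pyridoxal phosphate cofactor. Capitals mark those codons, in which 1 base differs; over the 84 bases shown 21 differ.
Gad1, coding bases 1165 to 1248: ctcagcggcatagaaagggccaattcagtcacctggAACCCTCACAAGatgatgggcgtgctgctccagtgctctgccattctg
Gad2, coding bases 1141 to 1224: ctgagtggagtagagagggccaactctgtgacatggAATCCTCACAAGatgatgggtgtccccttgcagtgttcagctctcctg
The second pair is the most similar ungapped stretch of 90 coding bases, shown because reads of the pair are most alike there. Capitals mark the 15 bases at which the genes differ.
Gad1, coding bases 1296 to 1385: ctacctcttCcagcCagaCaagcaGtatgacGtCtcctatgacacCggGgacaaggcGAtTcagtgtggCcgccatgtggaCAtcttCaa
Gad2, coding bases 1272 to 1361: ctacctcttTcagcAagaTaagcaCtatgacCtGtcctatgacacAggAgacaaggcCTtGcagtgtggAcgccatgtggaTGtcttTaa
No stretch of 50 bases of either transcript occurred in the other. An annotated pseudogene, Gad1-ps, shared 111 of the 3306 stretches of 50 bases of Gad1, or 3.36%. Of the 5695 stretches of Gad2, 68, or 1.19%, also occurred in other annotated genes, 321 in number.

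Gad1 had the highest count of the 8 genes in every library. It had 4245 and 4048 CPM in knockout libraries and 4354 and 4295 CPM in WT libraries, from 41643 to 44240 counts. Both knockout values lay below both WT values, and Gad1 ranked 8 of the 12449 tested genes by mean CPM. Gad2 had 792 and 814 CPM in knockout libraries and 852 and 865 CPM in WT libraries. Again the knockout values were the lower pair. The average of Gad1 was 4146 ± 139 CPM in knockout and 4324 ± 42.0 CPM in WT, and that of Gad2 803 ± 15.7 CPM in knockout and 858 ± 9.24 CPM in WT (SD, n = 2 each).

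Neither decarboxylase passed the test. The log2 fold change of knockout over WT was -0.06 for Gad1 (SE 0.06, 95% interval -0.19 to 0.07) and -0.09 for Gad2 (SE 0.06, 95% interval -0.23 to 0.04), at an adjusted p of 0.998 for each. The test was the quasi-likelihood test of edgeR, with p adjusted by Benjamini and Hochberg's method over all tested genes and a threshold of 0.05. As folds, the intervals ran from 0.878 to 1.05 for Gad1 and from 0.854 to 1.03 for Gad2. In pulled-down tissue RNA, fewer cells of a type and less RNA per cell cannot be told apart. Groups that did not overlap, with knockout lower, were found for 15.4% of all tested genes, so that 2 such members of 8 are read against that share.

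**Figure D1:**
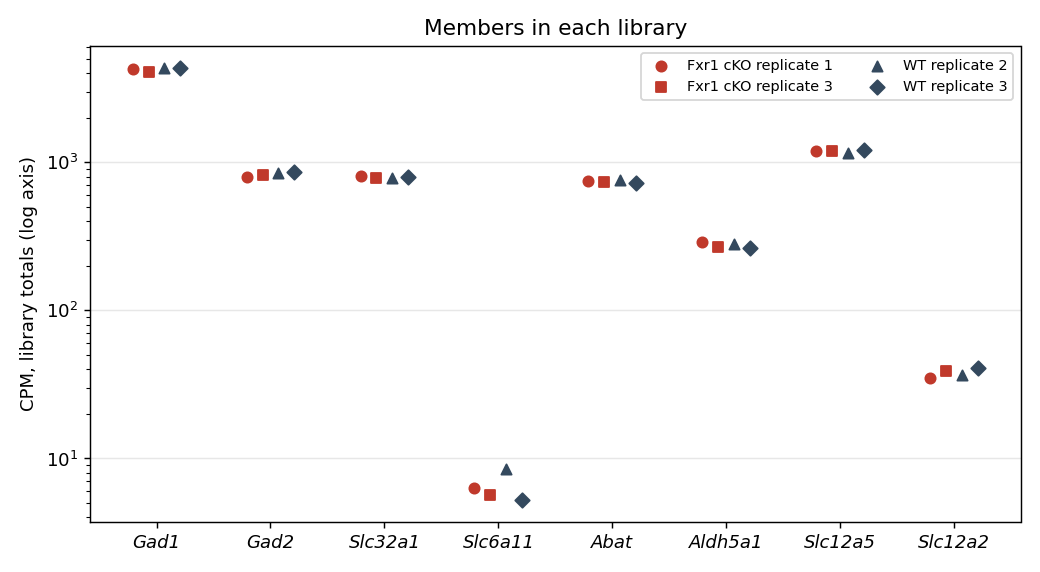
CPM of each of the 8 genes (x axis) in each library (y axis, log scale); red circles and squares are Fxr1 knockout replicates 1 and 3, dark triangles and diamonds WT replicates 2 and 3. Gad1 stood at 4048 CPM or more in every library and Slc6a11 under 10 CPM, and the 4 points of each gene lie close together except for Slc6a11.

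The Gad1 to Gad2 ratio of counts was 5.36 and 4.97 in knockout libraries and 5.11 and 4.97 in WT libraries. The genotypes overlapped. The highest value was that of knockout replicate 1, and the lowest, 4.966 in WT replicate 3, lay just under the 4.971 of knockout replicate 3. The mean ratio was 5.16 ± 0.274 in knockout and 5.04 ± 0.103 in WT (SD, n = 2 each), a difference of 0.03 on the log2 scale, with a two-sided p of 0.667 by an exact permutation test over libraries, which cannot go below 0.333 in 2 against 2. Of the counts of both decarboxylases, Gad1 took 84.3% and 83.3% in knockout libraries and 83.6% and 83.2% in WT libraries. Counts per kilobase of annotated exon gave Gad1 a level 3.97 ± 0.211 times that of Gad2 in knockout and 3.88 ± 0.0794 times in WT. With the length of the longest coding transcript the ratio was 8.84 ± 0.470 in knockout and 8.63 ± 0.177 in WT, since the annotated exons of Gad1 cover 7639 bases and its longest coding transcript 3355 bases, while those of Gad2 measure 5876 and 5744 bases.

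For Slc32a1, the vesicular GABA transporter, no difference was detected. It had 809.9 and 778 CPM in knockout libraries and 776 and 796 CPM in WT libraries. The values interleaved, and the means were 794 ± 22.8 CPM in knockout and 786 ± 13.8 CPM in WT (SD, n = 2 each). The log2 fold change was 0.015 (SE 0.07, 95% interval -0.12 to 0.15; adjusted p = 0.998 by edgeR). An antisense gene, Gm14205, lies over 24.9% of the exon bases of Slc32a1 on the opposite strand. The library kit keeps strand, but the sources used here do not state the strand setting of the counting, so whether reads of the pair were kept apart is unknown.

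Slc6a11, the GAT3 transporter, had the fewest counts of the 8 genes, with 64 and 58 counts in knockout libraries and 82 and 54 counts in WT libraries. These are 6.29 and 5.64 CPM in knockout and 8.46 and 5.24 CPM in WT. The highest and the lowest values were both WT, so the groups overlapped. Its log2 fold change of -0.19 (SE 0.24) had the widest 95% interval of the 8, from -0.68 to 0.30 (adjusted p = 0.998 by edgeR), so that folds from 0.624 to 1.23 lay within it at this depth. Without WT replicate 2 the log2 fold change was 0.18. The exact Poisson 95% intervals, which cover counting error alone, were 4.85 to 8.04 and 4.28 to 7.29 CPM in knockout replicates 1 and 3, and 6.73 to 10.5 and 3.94 to 6.84 CPM in WT replicates 2 and 3. Other astrocyte transcripts were measured beside it. The glutamate transporter gene Slc1a2 averaged 487 ± 50.3 CPM in knockout and 458 ± 18.3 CPM in WT, and the water channel gene Aqp4 12.1 ± 1.97 CPM in knockout and 10.8 ± 0.107 CPM in WT (SD, n = 2 each). The 10 astrocyte markers summed to 758 and 877 CPM in knockout and to 831 and 781 CPM in WT. How much of the Slc6a11 count came from astrocytes was not tested.

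Neither GABA-degrading enzyme passed the test. Abat, the GABA transaminase, had 746 and 739 CPM in knockout libraries and 757 and 724 CPM in WT libraries, and both knockout values lay inside the WT range. Its log2 fold change was 0.0056 (SE 0.07, 95% interval -0.13 to 0.14; adjusted p = 0.998 by edgeR). Aldh5a1, which oxidises the succinic semialdehyde that Abat makes, had 288 and 266 CPM in knockout libraries and 281 and 264 CPM in WT libraries. Here too the pairs interleaved, with a log2 fold change of 0.03 (SE 0.07, 95% interval -0.12 to 0.18; adjusted p = 0.998 by edgeR). The antisense genes 4932702P03Rik and 9330162012Rik cover 796 and 203 of the 5647 exon bases of Aldh5a1; 4932702P03Rik had at most 1 count in a library.

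Of the chloride carriers, the extruder stood far above the loader. Slc12a5 (KCC2) had 1182 and 1181 CPM in knockout libraries and 1156 and 1215 CPM in WT libraries. The knockout values lay between the WT values, and the log2 fold change was -0.0040 (SE 0.06, 95% interval -0.14 to 0.13; adjusted p = 0.998 by edgeR). Slc12a2 (NKCC1) had 34.8 and 38.7 CPM in knockout libraries and 36.7 and 41.1 CPM in WT libraries. Its groups overlapped as well, at a log2 fold change of -0.08 (SE 0.11, 95% interval -0.31 to 0.14; adjusted p = 0.998 by edgeR).

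The Slc12a5 to Slc12a2 ratio of counts was 34.0 and 30.5 in knockout libraries and 31.5 and 29.6 in WT libraries. Its mean was 32.2 ± 2.41 in knockout and 30.5 ± 1.35 in WT (SD, n = 2 each), which is a difference of 0.08 on the log2 scale (two-sided p = 0.667 by an exact permutation test). The genotypes overlapped, and the 95% counting intervals of the 4 libraries all shared the values between 30.5 and 32.6. Per kilobase of annotated exon the level of Slc12a5 was 47.3 ± 3.54 times that of Slc12a2 in knockout and 44.8 ± 1.98 times in WT; with the longest coding transcripts it was 34.9 ± 2.61 times in knockout and 33.0 ± 1.46 times in WT. Glial cells express Slc12a2 as well. Oligodendrocyte and precursor markers summed to 293 and 416 CPM in knockout libraries and to 318 and 289.7 CPM in WT libraries. The part of glia in the Slc12a2 counts was not tested. Excitatory neuron markers summed to 900 and 952 CPM in knockout libraries and to 942 and 861 CPM in WT libraries. The part of excitatory neurons in the Slc12a5 counts was not tested either.

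**Figure D2:**
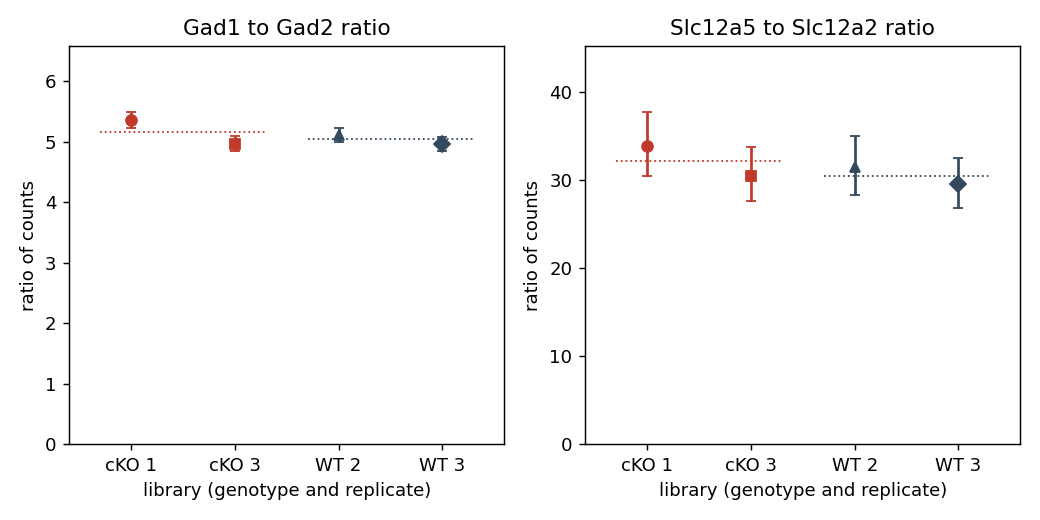
Ratio of counts (y axis, from 0) of Gad1 to Gad2 (left) and of Slc12a5 to Slc12a2 (right) in each library (x axis); bars are 95% counting intervals, dotted lines the genotype means. Knockout libraries (red) spanned 4.97 to 5.36 and 30.5 to 34.0, and WT libraries (dark) 4.97 to 5.11 and 29.6 to 31.5.

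Some relatives of the chloride carriers were measured beside them. Slc12a9 averaged 7.58 ± 0.409 CPM in knockout and 7.20 ± 0.167 CPM in WT, and Slc12a4 (KCC1) 1.56 ± 0.678 CPM in knockout and 1.34 ± 0.438 CPM in WT (SD, n = 2 each). Slc12a1, the kidney relative of NKCC1, had 0 counts in each library, which allows up to 0.291 to 0.309 CPM (3 counts of a library total). The longest exact runs that Slc12a5 shared with Slc12a4 and Slc12a7 were 28 and 26 bases, and it shared no stretch of 50 bases with any other gene. Of the 7 listed relatives 3 were tested, and 0 passed or had an unadjusted p under 0.05 by edgeR.

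Levels of different genes were compared per kilobase. By annotated exon length the order over the 4 libraries was Gad1 at 554 ± 17.4 CPM per kilobase, Slc32a1 at 282 ± 5.72, Slc12a5 at 159 ± 3.22, Gad2 at 141 ± 5.69, Abat at 95.7 ± 1.75, Aldh5a1 at 48.7 ± 2.07, Slc12a2 at 3.46 ± 0.245 and Slc6a11 at 1.27 ± 0.284 CPM per kilobase (SD, n = 4). Each neighbouring pair was further apart than the sum of its SDs. On this scale Gad1 ranked 16, Slc32a1 53, Slc12a5 118 and Gad2 147 of the 11684 tested genes with an annotated length, and Slc12a2 ranked 7056 and Slc6a11 9366. With the longest coding transcript, Abat at 159.9 ± 2.93 CPM per kilobase changed places with Gad2 at 145 ± 5.82 CPM per kilobase, and Gad1 stood at 1262 ± 39.6 CPM per kilobase. Slc32a1 stood above Gad2 per kilobase although its mean CPM, 790.0 against 831, was the lower, since its transcript measures 2797 bases.

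**Figure D3:**
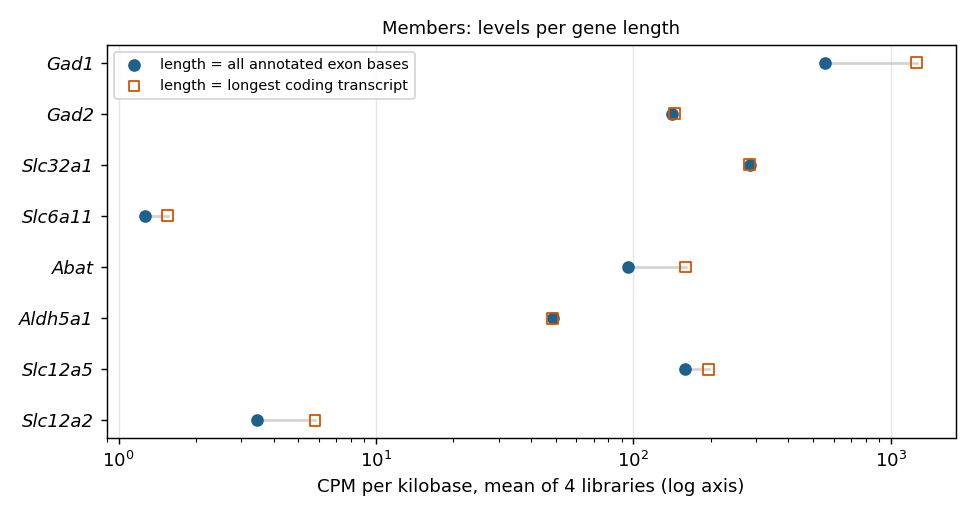
Mean CPM per kilobase over the 4 libraries (x axis, log scale) for the 8 genes (y axis); filled circles use all annotated exon bases and open squares the longest coding transcript as length. Gad1 is the highest by either length (554 and 1262 CPM per kilobase), and Slc12a2 and Slc6a11 lie below 10 CPM per kilobase by either.

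The knockout comparison asked whether loss of Fxr1 in parvalbumin neurons came with a different ribosome-bound level of these genes. All 8 passed the filter on low counts and were tested. By edgeR 0 of 8 passed, 0 had an unadjusted p under 0.05, and 0 passed by DESeq2 or limma voom; over all tested genes 0.0321% passed, 0.0161% in each direction, and 3.23% had such an unadjusted p. Fxr1 itself fell in knockout, with a log2 fold change of -2.45 (SE 0.10; adjusted p = 1.77e-15 by edgeR). Values were below 0 for 5 of the 8 genes and above 0 for 3, with a median log2 fold change of -0.03, beside -0.0015 over all tested genes, of which 50.4% were below 0. The groups overlapped for 6 of the 8 genes, and did not for Gad1 and Gad2, beside 30.2% of tested genes that did not overlap in either direction. For the 6 genes above 200 CPM each 95% interval lay within folds of 0.854 to 1.13, for Slc12a2 within 0.809 to 1.10. A p that misses the threshold does not show equal levels; the intervals give the differences that these libraries leave possible.

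**Figure D4:**
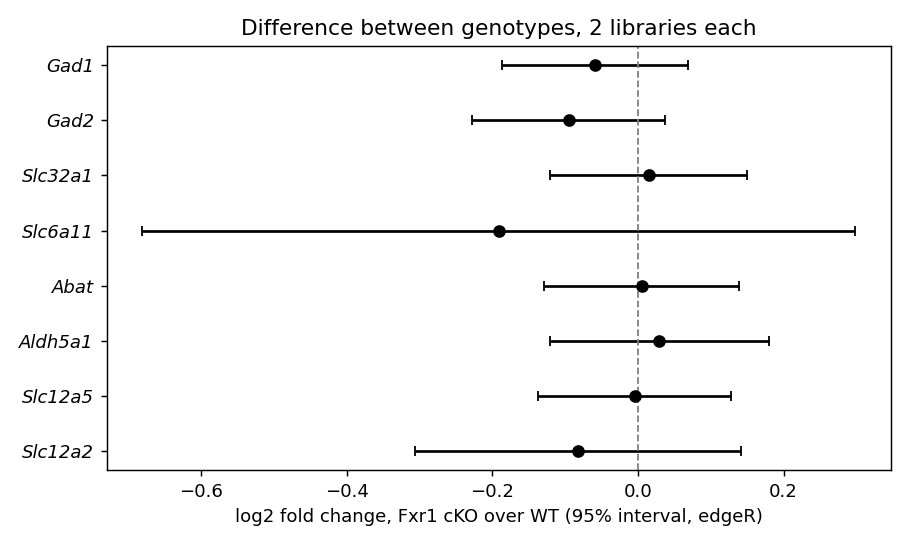
Log2 fold change of Fxr1 knockout over WT (x axis) for each of the 8 genes (y axis), as points with 95% intervals from edgeR over 2 libraries a genotype. Every interval holds 0; the widest is that of Slc6a11 (-0.68 to 0.30).

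**Figure D5:**
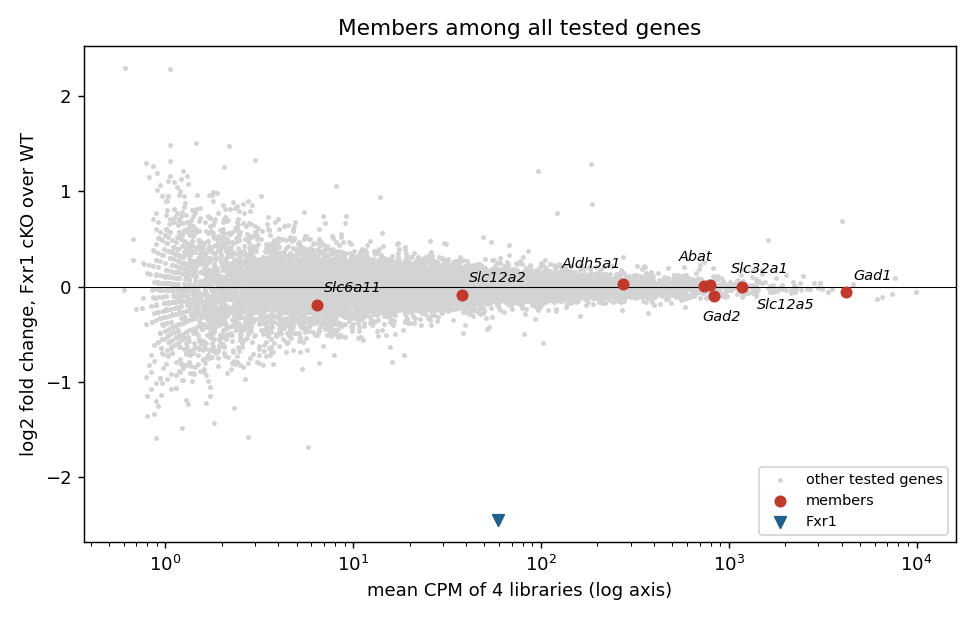
Log2 fold change of Fxr1 knockout over WT (y axis) against mean CPM of the 4 libraries (x axis, log scale) for 12449 tested genes (grey), the 8 genes (red circles) and Fxr1 (blue triangle). The 8 genes lie within the band of the other tested genes, and Fxr1 lies at -2.45.

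The spread over the 4 libraries was small for the genes of high count. The coefficient of variation of CPM was 3.14% for Gad1, 4.03% for Gad2, 2.02% for Slc32a1, 1.83% for Abat, 4.26% for Aldh5a1 and 2.03% for Slc12a5. Counting error alone gives 0.483% for Gad1 and 0.914% for Slc12a5. For Slc12a2 it was 7.08%, with 5.11% from counting, and for Slc6a11 22.4%, with 12.5% from counting. The 8 genes together took 0.810% and 0.787% of all counts in knockout libraries and 0.822% and 0.820% in WT libraries. Cortical parvalbumin neurons are not the sole cells with Gad1 and Gad2, and striatal projection neurons also use GABA. Of 7 tested striatal markers, 6 were higher in both knockout libraries than in both WT libraries (14.8% of all tested genes were). By edgeR 4 had an unadjusted p under 0.05 and 0 passed the threshold. The summed level of the 7 was 182 and 197 CPM in knockout and overlapped the 189 and 180.2 CPM in WT. Most of that sum came from Pde10a, the marker outside the 6. It had 111 and 127 CPM in knockout libraries and 130 and 122 CPM in WT libraries, so the sum says little of the other markers. The part of striatal projection neurons in the values of Gad1 and Gad2 was not tested.

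Around the 8 genes, 66 others in 6 lists were described; 65 were in the table and 55 were tested. By edgeR 0 passed, 0 had an unadjusted p under 0.05, and 31 had values above 0 and 24 below, with a median log2 fold change of 0.017. The groups did not overlap for 14 of these 55 genes, or 25.5%, beside 30.2% of all tested genes. Supply of glutamate and glutamine (11 genes, 10 tested, 5 above 0 and 5 below) had its highest CPM in Slc38a1, a glutamine transporter of neurons, at 881 ± 11.7 CPM in knockout and 868 ± 26.9 CPM in WT. The aspartate aminotransferase genes followed, Got1 at 733 ± 22.9 CPM in knockout and 758 ± 24.4 CPM in WT and Got2 at 331 ± 6.63 CPM in knockout and 327 ± 5.66 CPM in WT (SD, n = 2 each).

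Of 9 genes for the cofactor and partners of glutamate decarboxylase, 8 were tested, with 5 above 0 and 3 below. The chaperone gene Hspa8 had the highest CPM, at 2685 ± 34.8 CPM in knockout and 2728 ± 147 CPM in WT. Dnajc5, a chaperone gene of synaptic vesicles, averaged 301 ± 5.72 CPM in knockout and 297 ± 2.92 CPM in WT. Pdxk, whose kinase makes pyridoxal phosphate, averaged 257 ± 20.5 CPM in knockout and 249 ± 9.96 CPM in WT. Gadl1, a relative of the decarboxylases, had 0 to 4 counts a library and was not tested. Of 11 genes of other GABA routes and carriers 8 were tested, 2 above 0 and 6 below. Ogdh, a subunit of the oxoglutarate dehydrogenase that the GABA shunt bypasses, had the highest CPM of these, at 622 ± 12.2 CPM in knockout and 593 ± 28.8 CPM in WT. Both Ogdh values in knockout lay above both in WT, as in 14.8% of all tested genes. For 4 others of the 8 the knockout values were the lower pair, as in 15.4% of all tested genes. The median log2 fold change of the 8 was -0.10, and 0 had an unadjusted p under 0.05 by edgeR. The carriers Slc6a12 and Slc6a13 had few counts, with Slc6a13 at 2 and 3 counts in knockout libraries and 3 and 4 counts in WT libraries.

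All 11 kinases and partners of the cotransporters were tested, 6 above 0 and 5 below. WNK kinases activate the kinases SPAK (Stk39) and OSR1 (Oxsr1), which phosphorylate KCC2 and NKCC1 and so regulate chloride transport. Wnk1 averaged 436 ± 8.75 CPM in knockout and 430.0 ± 6.52 CPM in WT, and Wnk2 268 ± 31.3 CPM in knockout and 266 ± 19.7 CPM in WT. Neto2, whose protein binds KCC2, averaged 358 ± 30.8 CPM in knockout and 351 ± 39.9 CPM in WT. Of 17 genes of other chloride and bicarbonate handling 15 were tested, 10 above 0 and 5 below. Slc4a8, a sodium-driven chloride and bicarbonate exchanger, had the highest CPM of these, at 439 ± 2.14 CPM in knockout and 432 ± 11.1 CPM in WT, followed by Clcn3, a chloride and proton exchanger of vesicles, at 321 ± 13.9 CPM in knockout and 321 ± 2.84 CPM in WT (SD, n = 2 each).

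By position, 4 of the 8 genes lie on mouse chromosome 2 (mm10, plus strand): Gad2 at 22622205 to 22693874, Gad1 at 70553072 to 70602014, Slc32a1 at 158610767 to 158615748 and Slc12a5 at 164960802 to 164999731. Slc6a11 lies on chromosome 6 at 114131241 to 114249952, Aldh5a1 on chromosome 13 at 24907579 to 24937661, Abat on chromosome 16 at 8513429 to 8621568 and Slc12a2 on chromosome 18 at 57878678 to 57946821. The longest coding transcripts ran from 2797 bases for Slc32a1, in 2 exons, to 6520 bases for Slc12a2, in 27 exons. Their 3′ untranslated regions took from 26.7% of the transcript in Slc32a1 to 70.6% in Aldh5a1, with 36.4% in Gad1 and 61.5% in Gad2. The share of G and C in the coding sequence was 61.5% in Slc32a1 and 50.4%, 49.2% and 49.2% in Gad1, Gad2 and Slc12a2.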

How the data were processed

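Libraries of the immunoprecipitated RNA were made with Takara's SMARTer stranded total RNA kit, per the labels' protocols. The submitters' processing notes name STAR and mm10. Counting tool, annotation, strand setting and STAR version: not given in the sources used here. Raw counts for each gene symbol were deposited by the authors. The 4 columns whose names match 1 sample title each were used; 2 others share 1 title and were left out, so 2 libraries were compared with 2 in place of the planned 3 with 3. Groups are the labelled genotypes, and replicate numbers follow accession order.

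Differences in counts were tested with edgeR 4.0.16 under R 4.3.3 (TMM, filterByExpr, robust quasi-likelihood fits, Benjamini-Hochberg adjustment over 12449 genes, threshold 0.05); the median SE of a log2 fold change was 0.13. The code was checked on simulated counts. The 95% intervals use the t distribution of that fit. CPM use the totals of the deposited counts. Counting intervals of ratios use the normal approximation on the log scale, and intervals and floors cover counting error only. Gene lengths, positions and sequences are from GENCODE M21 by symbol, which placed 11684 tested genes. The members and lists were chosen with earlier results of these data known; of each list, genes with the highest CPM are named; Aqp4, Folr1, Gadl1, Slc6a12, Slc6a13 and the scarcer Slc12 genes were added after their values were seen, and some listed genes are not reported here. Alternatives were DESeq2 1.42.0, limma 3.58.1 voom, other scalings, filters and lengths, and leaving out each library.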

Additional observations from a re-analysis of the deposited data

How the results depend on the processing

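Under all 12 alternatives 0 of the 8 genes and 0 of the 55 pathway genes passed, and the smallest adjusted p of a member was 0.99. The number of genes past the threshold, 4 by edgeR, was 13 without a filter on low counts, 1 with library totals, 2 by DESeq2, and 9 to 48 over the libraries left out, where a lone library is assumed to vary like the other genotype. Of 96 recomputed log2 fold changes of members, 10 turned sign, all when a library was left out and none past the threshold. Without knockout replicate 1 they were -0.028 for Slc32a1, -0.013 for Abat and -0.042 for Aldh5a1; without knockout replicate 3, 0.0097 for Slc12a5; without WT replicate 2, -0.0087 for Slc32a1 and 0.18 for Slc6a11; without WT replicate 3, -0.016 for Abat, -0.0052 for Aldh5a1, 0.042 for Slc12a5 and 0.012 for Slc12a2. Leaving out single libraries, the values spanned -0.028 to 0.057 for Slc32a1, -0.49 to 0.18 for Slc6a11, -0.016 to 0.032 for Abat, -0.042 to 0.099 for Aldh5a1, -0.045 to 0.042 for Slc12a5 and -0.17 to 0.012 for Slc12a2. Over all alternatives Gad1 stayed between -0.11 and -0.012 and Gad2 between -0.11 and -0.074. The cause was not tested. The knockout minus WT difference of the log2 ratio ranged from -0.02 to 0.09 for Gad1 to Gad2 and from 0.00051 to 0.15 for Slc12a5 to Slc12a2 without single libraries. The level ratio of Gad1 to Gad2, 3.92 over the 4 libraries, was 8.74 with the longest coding transcripts, and that of Slc12a5 to Slc12a2, 46.0, was 34.0; the lengths alone differ. Without single libraries these ratios spanned 3.86 to 3.96 and 44.8 to 46.9. No paired analysis was possible because numbers were assigned in accession order. At 54 to 82 counts a library, depth limits Slc6a11 most.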

Other observations

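Besides the Gad1 to Gad2 and Slc12a5 to Slc12a2 ratios, 3 further ratios of counts within a library were computed, 5 in all. Slc32a1 to Gad2 was 1.02 and 0.955 in knockout libraries and 0.912 and 0.921 in WT libraries, and Slc32a1 to Gad1 was 0.191 and 0.192 in knockout libraries and 0.178 and 0.185 in WT libraries. For both the knockout values were the higher pair, at differences of 0.11 and 0.07 on the log2 scale, with a two-sided p of 0.333 by an exact permutation test, the smallest that 2 against 2 libraries can give (adjusted p = 0.833 over the 5 ratios). Abat to Aldh5a1 was 2.59 and 2.78 in knockout libraries and 2.70 and 2.75 in WT libraries, and the genotypes overlapped.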
